A study of Mus musculus with 13 samples.

Results

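Double positive thymocytes from mice labelled as Sox4 conditional knockout were compared with wild-type double positive thymocytes. Of the 13 microarrays in the series, 4 entered this comparison, namely 2 labelled Sox4 cKO (conditional knockout, replicates 3 and 4) and 2 labelled wild type (WT, replicates 3 and 5). The array labelled double positive (DP) cKO replicate 5 was left out because its Cd4, Cd8a and Rag1 were low and its Sox13 and Etv5 were high. All genes on autosomes were described, 18929 of the 19752 genes fitted.

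DP cells carry both CD4 and CD8 and were sorted by flow cytometry from the thymus of 2-week-old mice. The labels give the sex as mixed and name no strain, no Cre driver and no number of animals per array, so neither the stage at which Sox4 was deleted nor pooling of animals can be read from them. The 7 arrays of immature γδ thymocytes with the Vγ2 chain (V2; 4 labelled cKO, 3 labelled WT; without CD4 and CD8, high for the surface marker HSA) came from mice of the same age. They shared the estimate of spread with the DP arrays. The array labelled V2 WT replicate 5 (titled immV2) was left out of the fit, since it read high for Cd4, Cd8a and Rag1.

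Sox4 is a transcription factor of the SoxC group that binds DNA through an HMG box, the same domain found in the T cell factors TCF1 and LEF1. In the thymus, DP cells rearrange the T cell receptor α locus with the RAG recombinase and test the receptor against self ligands. Cells with a useful receptor lose one coreceptor, mature to single positive cells and leave, and a small branch selected on CD1d becomes invariant natural killer T (iNKT) cells. Sox4 is known for roles in T cell differentiation and in the maturation of IL-17-producing γδ cells.

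The markers used to choose the arrays are given as a description, without a test. On the log2 intensity scale the 4 DP arrays had Cd4 at 12.4 to 12.6, Cd8a at 12.6 to 12.9 and Rag1 at 12.90 to 13.04, against 6.71 to 7.36, 7.49 to 8.23 and 6.67 to 7.14 in the 7 V2 arrays. The left-out DP cKO replicate 5 read 7.47, 7.65 and 6.87. Sox13, at 7.83 to 8.18 in the DP arrays, was 11.49 in the left-out array, and Etv5 was 6.41 to 6.64 against 12.01.

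Sox4 itself, the targeted gene, had 1 probe set and read 9.37 and 8.55 in WT and 8.74 and 8.68 in cKO (log2 intensity). The groups overlapped, and the difference of -0.25 (SE 0.49) turned to 0.16 without WT replicate 3. The sources used here do not place this probe set against the deleted stretch, so its level may check nothing about the genotype. The cKO labels were kept as given.

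The spread between replicates was as large as the difference between genotypes across the genome. Over autosomal genes the standard deviation of the log2 difference was 0.33 between the WT arrays and 0.24 between the cKO arrays. Replicate spread of that size alone implies a standard deviation of 0.205 for the difference of the group means, and 0.206 was observed. Between single arrays, 242 genes differed by over 1 log2 unit in the WT pair, 76 in the cKO pair, and 116 to 237 in the pairs of 1 cKO and 1 WT array. Since nothing ties the replicates to separate mice, a p-value here reflects the spread between arrays alone, which may be technical. That spread was estimated over the 11 DP and V2 arrays in the fit, not over the DP arrays only. DP WT replicate 5 had Xist, transcribed from the inactive X chromosome, at 12.4, while DP WT replicate 3 and both DP cKO arrays had it at 5.52 to 5.61. Sex markers thus also differed between the DP WT arrays.

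Of 19752 genes, 5 or 0.0253% passed an adjusted p of 0.05 with limma, and all 5 are autosomal. Nnat and B3gnt5 fell in DP cKO, and Cd53, Ero1b and Slc28a2b rose. In bulk samples such as these, fewer cells of a type and less RNA per cell cannot be told apart. At an unadjusted p under 0.05 there were 535 genes or 2.71%, a smaller share than that cut-off gives with no difference in any gene.

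Nnat encodes neuronatin, a small membrane proteolipid of the endoplasmic reticulum, and is expressed from the paternal allele. It lies at chr2:157560078-157562525 (GRCm38.p6). The WT arrays read 10.91 and 11.52 and the cKO arrays 8.03 and 6.64 on the log2 scale. Both cKO arrays were far below both WT arrays, and the cKO arrays differed from each other by more than the WT arrays did. Nnat fell by 3.88 (SE 0.42, limma adjusted p = 0.0075), or 14.8-fold. Blcap, the gene within which Nnat lies, read 8.24 in WT and 8.20 in cKO on average.

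B3gnt5 (chr16:19760192-19772760) encodes the enzyme that starts the lacto series of glycosphingolipids. It read 7.87 and 7.96 in WT and 6.04 and 5.79 in cKO. The groups did not overlap, and both replicates of each group lay close together. B3gnt5 fell by 2.00 (SE 0.24, limma adjusted p = 0.0075), a 3.99-fold change. Its cKO level lies at the lower quartile of the DP arrays (5.89), so the size of the difference depends on the background.

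Cd53 (chr3:106758861-106790149) encodes a tetraspanin, a membrane organiser found on most leukocytes. It read 7.95 and 8.08 in WT and 10.54 and 10.04 in cKO. All V2 arrays kept read higher still, from 11.6 to 12.8. Cd53 rose by 2.28 (SE 0.26, limma adjusted p = 0.0075), or 4.84-fold.

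Ero1b (chr13:12565818-12609533) encodes an oxidase that recharges protein disulfide isomerase during protein folding. It read 6.86 and 6.65 in WT and 9.27 and 8.35 in cKO. The WT level was below the median of the DP arrays (7.01), and both cKO arrays were above it. Ero1b rose by 2.06 (SE 0.24, limma adjusted p = 0.0075), or 4.17-fold.

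Slc28a2b (chr2:122484941-122528040) belongs to the concentrative nucleoside transporters, which carry nucleosides into cells with sodium. It read 7.70 and 7.59 in WT and 9.89 and 9.24 in cKO. It rose by 1.92 (SE 0.24, limma adjusted p = 0.00885), or 3.80-fold. Its close paralog Slc28a2 read 8.20 and 7.99 in WT and 9.10 and 9.07 in cKO (difference 0.99, SE 0.18, adjusted p = 0.17). The groups of Slc28a2 did not overlap either, and near-identical paralogs can share signal on an array, so the split between them is uncertain.

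**Figure D1:**
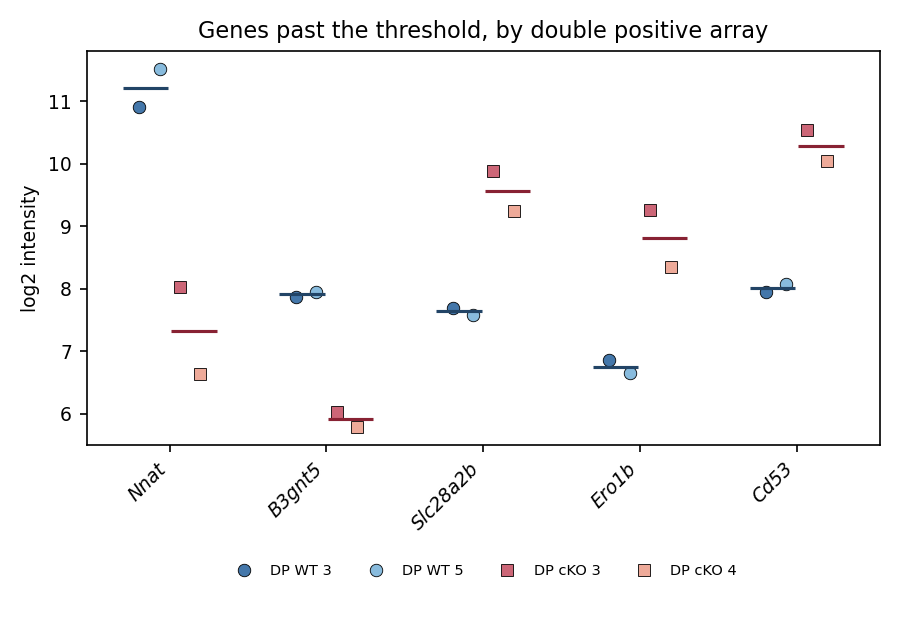
Log2 intensity (vertical axis) of the 5 genes past the threshold in each of the 4 double positive arrays. Circles are WT, squares are cKO and short lines are group means; in each gene both cKO arrays lie on 1 side of both WT arrays, with Nnat at 8.03 and 6.64 in cKO against 10.91 and 11.52 in WT.

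The 5 calls depended on the fit. No gene passed when the 4 DP arrays were fitted by themselves, in the 13 arrays as labelled, without WT replicate 5 or with a covariate for Xist, although the 5 differences kept their direction. Among these fits the differences could change sign only in the 13 arrays and with the Xist covariate, since the DP groups of each gene do not overlap. With the Xist covariate they were -3.61 for Nnat, -1.98 for B3gnt5, 2.26 for Cd53, 1.96 for Ero1b and 1.87 for Slc28a2b (limma adjusted p from 0.0724 to 0.0871). The 13 arrays as labelled include the 2 with the marker profile of the other population, so differences in that fit also carry the population difference. They were -3.46 for Nnat, -1.37 for B3gnt5, 3.03 for Cd53, 1.51 for Ero1b and 0.80 for Slc28a2b.

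Promoters of the 5 genes were searched for the SOX-type motif AACAAT and the TCF-type motif AACAAAG on both strands, in the 250 bases before the transcript start of the RefSeq promoter table (GRCm38.p6). For B3gnt5 and Ero1b that start lies inside the gene's span given above, so their windows begin before the span and run into it. None of the 5 windows held either. AACAAT is in 9.65% and AACAAAG in 4.99% of 27025 promoters of that length.

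Beyond the calls, genes were ranked by size among those with an unadjusted p under 0.01, groups that do not overlap and a level at or above the median. There were 62 such genes lower and 58 higher in cKO. Without the cuts on p and level, groups did not overlap in 29.9% of autosomal genes, and in 0.116% the cKO arrays were also higher by over 1 log2 unit, in 0.19% lower. The 12 largest in each direction include the 5 called genes. The others did not pass, and their differences are given as values. These values chose the genes, so they support nothing about the list.

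**Figure D2:**
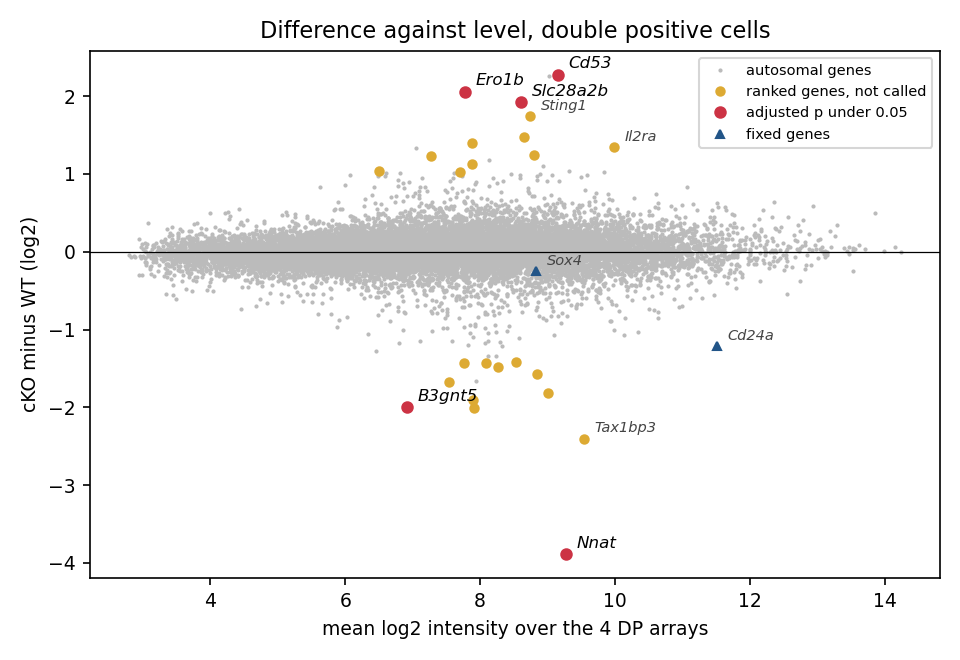
Log2 difference, cKO minus WT, of each autosomal gene (vertical axis) against its mean log2 intensity over the 4 double positive arrays. Red points are the 5 called genes, yellow points the ranked genes that were not called, and triangles Sox4 and Cd24a; Nnat at -3.88 and Tax1bp3 at -2.40 are the lowest.

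Among the genes with lower values, Tax1bp3, a small PDZ domain protein, read 10.54 and 10.93 in WT and 8.41 and 8.26 in cKO (difference -2.40, SE 0.36, limma adjusted p = 0.0527). Tax1bp3 has 2 probe sets, of which the brighter is given. The place of that probe set on the genome was not checked. Mcoln3, a cation channel of endosomes and lysosomes, read 8.63 and 9.21 in WT and 6.89 and 6.92 in cKO (difference -2.01, SE 0.44). Marcksl1, a regulator of the actin cytoskeleton, read 8.93 and 8.75 against 6.39 and 7.49. In these genes the gap between the groups was wider than the spread within either.

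Tet1, an enzyme that oxidises methylated cytosine, read 9.32 and 10.49 in WT and 8.03 and 8.15 in cKO, with the WT arrays over 1 log2 unit apart. Tgif1, a homeobox corepressor that limits TGF-β signalling, read 9.02 and 9.46 against 8.02 and 7.64. Tsc22d1, a leucine zipper protein, read 8.73 and 9.27 against 7.05 and 7.998. Mex3a, an RNA-binding protein, differed by -1.43 (SE 0.40). The remaining genes with lower values were Neto2, an auxiliary subunit of kainate receptors (-1.67, SE 0.33), Tmsb10, a thymosin that binds actin monomers (-1.57, SE 0.27), and the cyclin-like gene Ccnjl (-1.43, SE 0.30).

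Among the genes with higher values, Sting1, the adaptor of cytosolic DNA sensing, read 7.63 and 8.12 in WT and 9.43 and 9.80 in cKO (difference 1.74, SE 0.32, limma adjusted p = 0.17). Il2ra, the CD25 chain of the interleukin-2 receptor, read 8.73 and 9.88 against 10.54 and 10.77 (difference 1.35, SE 0.40). The WT arrays of Il2ra were further apart than the gap between the groups. Cdc14b, a phosphatase, differed by 1.48 (SE 0.30).

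Cyth4, an exchange factor for ARF GTPases, read 7.24 and 7.13 in WT and 8.84 and 8.32 in cKO (difference 1.40, SE 0.22, limma adjusted p = 0.0709). Rab37, a small GTPase, differed by 1.24 (SE 0.24), and Gramd1b, a sterol transfer protein, by 1.02 (SE 0.27). AW112010 (1.23, SE 0.36) and the non-coding RNA gene Snora75 (1.03, SE 0.27) complete the set with Mir142.

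Mir142, the precursor of a microRNA of blood cells, read 7.69 and 6.93 in WT and 8.25 and 8.62 in cKO (difference 1.12, SE 0.35, limma adjusted p = 1). Its mature sequences are printed with those of miR-181a and miR-181b, which tune receptor signalling in DP cells. The seed, bases 2 to 8, is in capitals, and miR-181a and miR-181b share it, so precursors with differences of opposite sign here carry the same seed. Sequences and positions are from RefSeq (GRCm38.p6).
mmu-miR-142a-5p: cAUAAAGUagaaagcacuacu
mmu-miR-142a-3p: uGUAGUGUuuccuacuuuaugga
mmu-miR-181a-5p: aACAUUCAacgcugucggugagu
mmu-miR-181b-5p: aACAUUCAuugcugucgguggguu

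Of the 6 measured miR-181 precursors none was called. Mir181b-2 on chromosome 2 read 6.85 and 7.33 in WT and 5.61 and 6.02 in cKO (difference -1.27, SE 0.51). Mir181a-1 on chromosome 1 read 7.35 and 6.86 against 8.02 and 7.32, and the groups overlapped. Its difference was 0.56 (SE 0.30). Mir181b-1, also on chromosome 1 and with the highest signal of the 6, read 10.89 and 10.33 against 11.38 and 10.94. The array measures precursors or their host transcripts, not the mature microRNA.

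The V2 arrays gave the cKO against WT comparison in another population. They share no array with the DP comparison, but they enter the estimate of spread that the ranking used, so V2 values are given as a description. Of the 12 genes with lower values in DP cKO, 11 also had a lower mean in V2 cKO in the fit, where 48.1% of all autosomal genes did. This lay in 1 of the 2 title sets. In the immV2 set (2 cKO arrays, 1 WT array) 11 of the 12 had a lower cKO mean, against 47.9% of autosomal genes, with a median difference of -1.11. In the V2imm set (2 cKO, 2 WT) 6 of the 12 did, against 48.3%, with a median of -0.0563.

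Mcoln3 shows the split, with V2imm arrays at 9.92 and 9.68 in WT and 10.01 and 9.92 in cKO, and immV2 arrays at 9.16 in WT and 7.36 and 6.99 in cKO. Marcksl1 read 9.64 and 9.09 against 9.08 and 9.01 in V2imm, and 9.02 against 6.75 and 7.27 in immV2. Tet1 read 11.12 and 10.88 against 11.41 and 10.65 in V2imm, and 10.39 against 9.38 and 9.13 in immV2. In these genes both immV2 cKO arrays stood below all other V2 arrays. What the title sets stand for is not given in the labels, and the part of the set in these differences was not tested.

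B3gnt5 was lower in both sets, at 7.89 and 7.64 in WT and 7.45 and 7.45 in cKO in V2imm, and at 7.97 against 7.39 and 6.68 in immV2. It was the 1 gene of the 12 whose V2 groups did not overlap, as in 1.78% of autosomal genes. Tax1bp3 read 10.2 to 10.4 in V2 WT and 8.66 to 10.3 in V2 cKO. Tmsb10 had the opposite sign, with 0.47 (SE 0.21) in V2 against -1.57 in DP. Nnat was -0.64 (SE 0.32) in V2, where its median was 6.55 in WT and 6.58 in cKO, close to its lowest DP cKO level.

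Of the 12 genes with higher values in DP cKO, 8 had a higher mean in V2 cKO, where 51.9% of autosomal genes did. Within the title sets these were 11 of 12 in immV2 and 7 of 12 in V2imm. In none of the 12 did the V2 groups lie apart with cKO higher, as in 1.65% of autosomal genes. AW112010 differed by 1.27 (SE 0.28) in V2. Cd53 (-0.12, SE 0.20), Ero1b (-0.01, SE 0.19) and Sting1 (-0.07, SE 0.25) differed in V2 by less than their errors. No gene was called in V2 with limma (0 of 19752 or 0.0% after adjustment). At an unadjusted p under 0.05, 353 autosomal genes were lower (1.86%) and 370 higher (1.95%), again fewer than that cut-off gives without any difference.

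The difference between the DP and V2 effects was tested as an interaction, and 0 of 19752 genes passed (0.0%) with limma. At an unadjusted p under 0.05 there were 372 genes, fewer than that cut-off gives with no difference. The interaction was 2.39 (SE 0.33, adjusted p = 0.146) for Cd53, 2.07 (SE 0.31, adjusted p = 0.162) for Ero1b and -3.24 (SE 0.53, adjusted p = 0.218) for Nnat. No gene is therefore shown to respond differently in DP and V2 cells.

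**Figure D3:**
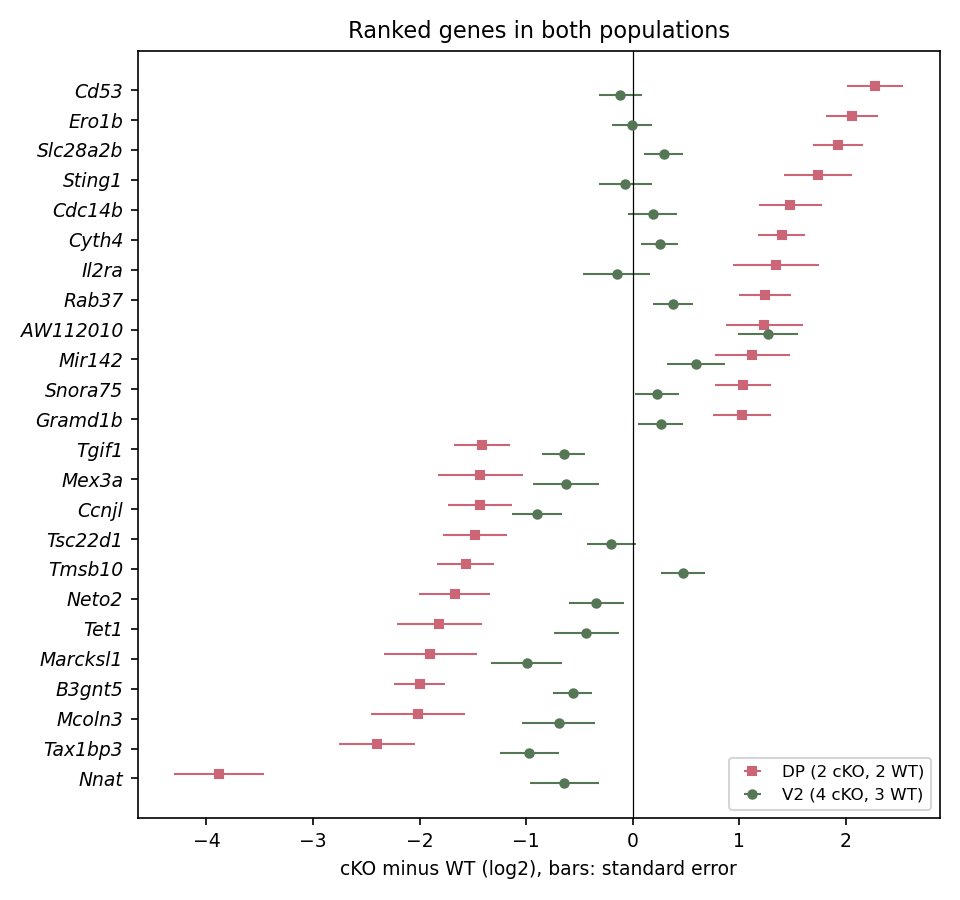
Log2 difference, cKO minus WT (horizontal axis), of the 24 ranked genes in double positive arrays (squares, 2 cKO and 2 WT) and V2 arrays (circles, 4 cKO and 3 WT), with standard errors. Of the 12 genes with lower DP values, 11 lie below 0 in V2, a count of 11 within the immV2 arrays and 6 within the V2imm arrays, and Tmsb10 lies above 0 at 0.47.

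Most transcripts of skeletal muscle had higher values in the cKO arrays. Of 28 muscle genes, 19 had both cKO arrays above both WT arrays, against 15.9% of autosomal genes. For 17 the unadjusted p was under 0.05 in that direction, against 1.29% of autosomal genes, and for 0 in the other direction, against 1.44%. None was called. Myl1, a myosin light chain, read 9.01 and 6.79 in WT and 10.58 and 9.73 in cKO, and Acta1, skeletal actin, 8.66 and 7.94 against 9.42 and 8.82. The list summed to intensities of 4546 and 3288 in WT and 8405 and 5520 in cKO, and 26 of the 28 were highest in cKO replicate 3.

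None of these markers is at 0, since an array gives every probe set a signal. Decorin (Dcn), a connective tissue gene, read 6.15 and 6.05 in WT and 7.19 and 6.95 in cKO. The stromal list that holds Dcn did not rise as a whole. Of its 17 genes 3 lay higher and 4 lower without overlap, against 15.9% and 14.0% of autosomal genes, with a median difference of 0.0031. Cd53, Ero1b and Slc28a2b, like the muscle sum, were highest in cKO replicate 3. These genes were ranked for groups that do not overlap, so only the order of the cKO arrays was free. Without cKO replicate 3 there were 3 calls, which kept Nnat and Ero1b among the 5. The part of muscle RNA in the other differences was not tested.

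The other marker lists differed less in their sums. The B cell list summed to intensities of 1243 and 1252 in WT and 1646 and 1768 in cKO, with 1 of its 9 genes above the array median in each array. Cd79b alone lay higher without overlap, while Ms4a1, Pax5 and Vpreb3 lay lower, against 15.9% and 14.0% of autosomal genes. The median difference of the list was 0.024. The γδ list, which holds the array-choice genes Sox13 and Etv5, summed to 1254 to 1297 in WT and 1320 to 1364 in cKO. The macrophage and dendritic cell list summed to 1323 and 1365 in WT and 1501 and 1390 in cKO. The natural killer, granulocyte, erythroid, adipocyte and stromal lists gave 999 to 1131, 665 to 711, 622 to 719, 536 to 573 and 2554 to 2772 over the 4 arrays.

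None of the genes listed for the DP stage was called, though some of them, such as Tcf12 and Ccr9, read about as high in V2 WT. Of the 22 listed genes, 1 lay higher and 4 lay lower in both cKO arrays than in both WT arrays, where 15.9% and 14.0% of autosomal genes did. The median difference was -0.02, against 0.0027 over all autosomal genes. Slc7a11, the cystine transporter, read 10.61 and 10.54 in WT and 9.76 and 9.69 in cKO, with replicates close together (difference -0.85, SE 0.16, limma adjusted p = 0.18). Ptcra, the pre-T cell receptor α chain, read 8.90 and 8.89 against 8.37 and 8.33. Both had a wider gap between groups than within them, and Cd8b1 read 13.2 in both groups on average.

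Among genes of the preceding double negative stage, 4 of 18 lay higher and 3 lower without overlap, against 15.9% and 14.0% of autosomal genes. Il2ra, described above, had the largest difference, and Flt3, a cytokine receptor of early progenitors, differed by -0.30 (SE 0.14) at a level below the array median. The list summed to intensities of 3497 and 4737 in WT and 5188 and 6759 in cKO. Such a sum follows the brightest members, here Notch1 and Il2ra. Notch1 read 10.05 and 10.61 in WT and 10.55 and 11.35 in cKO, and its groups overlapped. The median difference of the list was 0.038, with 10 means higher and 8 lower.

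Of 17 genes of single positive lineage choice, 6 lay higher and 2 lower without overlap, against 15.9% and 14.0% of autosomal genes. Runx3, a factor of the CD8 lineage, read 8.07 and 8.70 in WT and 9.11 and 9.67 in cKO (difference 1.01, SE 0.28). Ctla4, an inhibitory receptor, read 6.179 and 6.200 against 6.95 and 6.54, below the array median in all 4. Tox, an HMG box factor needed for CD4 lineage cells, differed by -0.38 (SE 0.22). The largest difference of the list was a lower value, that of Icos. It read 9.07 and 9.20 in WT and 8.08 and 7.96 in cKO (difference -1.11, SE 0.39). None of the 17 was called.

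For maturation and egress, 8 of 22 genes lay higher and 4 lower without overlap, against 15.9% and 14.0% of autosomal genes. The median was 0.22. Cd24a, the gene of the immaturity marker HSA, read 11.97 and 12.27 in WT and 10.89 and 10.93 in cKO (difference -1.21, SE 0.41, limma adjusted p = 1). Its groups were over 1 log2 unit apart in each pair of arrays. In V2 Cd24a differed by -0.79 (SE 0.32), mainly within the immV2 set. It read 12.21 and 12.02 in WT and 12.31 and 11.61 in cKO in V2imm. In immV2 it read 11.67 in WT against 10.38 and 9.46 in cKO. Ccr7, the chemokine receptor that guides mature thymocytes to the medulla, read 7.89 and 7.89 against 9.36 and 8.24, so its difference lay mainly in cKO replicate 3. Dgka, a kinase that removes diacylglycerol, differed by 0.45 (SE 0.24). Of these 22 genes 1 in each direction had an unadjusted p under 0.05, against 1.29% higher and 1.44% lower over autosomal genes.

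**Figure D4:**
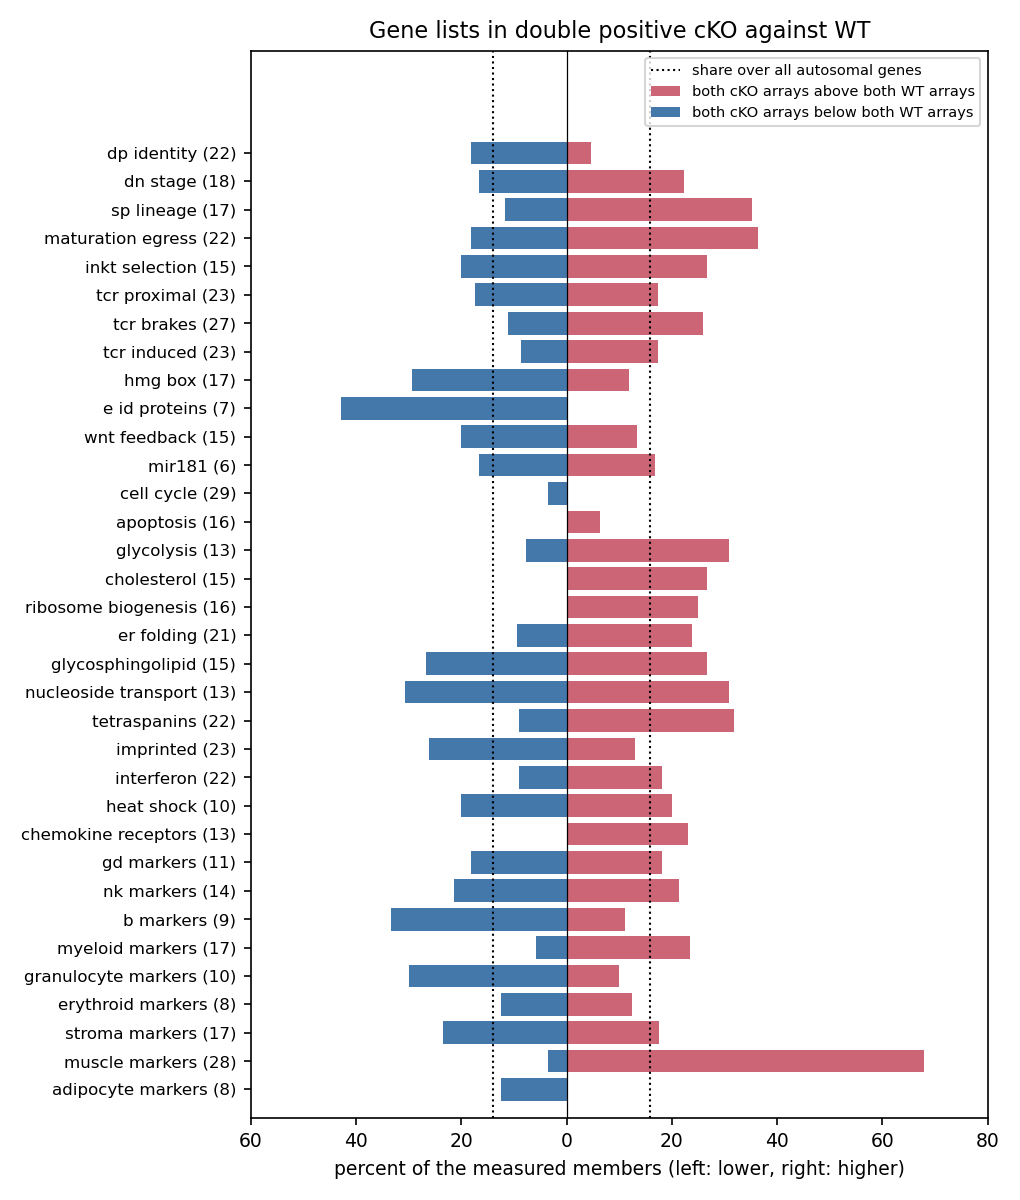
Share of the measured members of each gene list (horizontal axis, percent; list sizes in parentheses; dp, dn and sp are double positive, double negative and single positive, gd γδ, nk natural killer and b B cell) with both cKO arrays above (right) or below (left) both WT arrays. Dotted lines are the shares over all autosomal genes, 15.9% and 14.0%; the muscle list stands out with 19 of 28 members on the right.

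T cell receptor signalling genes showed no common direction. Of 23 proximal components 4 lay higher and 4 lower without overlap, against 15.9% and 14.0% of autosomal genes. None had an unadjusted p under 0.05. The kinase gene Txk differed by 0.44 (SE 0.27) and the exchange factor gene Sos1 by -0.39 (SE 0.30), and Sos1 was 0.14 without WT replicate 5. Ptprc, the CD45 phosphatase, differed by 0.15 (SE 0.19). Of 27 brakes on signalling, which include Ctla4 and Dgka, 7 lay higher and 3 lower, with a median of 0.0064.

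Among 23 genes induced by receptor signals, 4 lay higher and 2 lower without overlap, against 15.9% and 14.0% of autosomal genes. Myc, a driver of growth, read 8.52 and 8.89 in WT and 9.59 and 9.65 in cKO (difference 0.91, SE 0.22, limma adjusted p = 0.52), and both cKO arrays were above both WT arrays. Itih5 differed by -0.45 (SE 0.20) at a level below the lower quartile. For iNKT selection, 4 of 15 genes lay higher and 3 lower. Cd1d1, which presents lipids to iNKT precursors, read 8.16 and 8.50 against 7.83 and 8.02. Vdr, the vitamin D receptor, differed by 0.65 (SE 0.37) in DP and by -1.61 in V2, with an interaction adjusted p of 0.58 with limma.

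HMG box factors other than Sox4 had 2 of 17 members higher and 5 lower without overlap, against 15.9% and 14.0% of autosomal genes. Their median was -0.08. Tox3 read 7.94 and 8.69 in WT and 7.69 and 7.87 in cKO. Sox11, a SoxC gene like Sox4, read 5.97 and 5.90 against 5.64 and 5.64 (difference -0.29, SE 0.15), near the lower quartile of the arrays. Lef1 read 11.11 and 11.97 against 11.51 and 11.62, and its difference of 0.02 (SE 0.26) changed sign with quantile normalization. Of 15 Wnt feedback genes, 2 lay higher and 3 lower, with Axin2, a target of β-catenin, at -0.31 (SE 0.21) and the corepressor gene Tle4 at -0.38 (SE 0.27).

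E proteins and their inhibitors had 0 of 7 genes higher and 3 lower without overlap, against 15.9% and 14.0% of autosomal genes. Id2, an inhibitor of E proteins, read 7.74 and 8.12 in WT and 7.12 and 6.79 in cKO (difference -0.98, SE 0.29, limma adjusted p = 0.96). In V2 it differed by 0.81 in the other direction, with an interaction adjusted p of 0.58 with limma. Tcf4, the E protein E2-2, differed by -0.37 (SE 0.22).

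Proliferation genes overlapped between the groups. Of 29 cell cycle genes, 22 had a lower mean in cKO, where 9292 of 18929 autosomal genes did, but none had an unadjusted p under 0.05. The list averaged 9.87 and 10.06 in WT, 9.55 in cKO replicate 3 and 10.22 in cKO replicate 4. The cKO arrays thus lay on either side of the WT arrays. Without overlap 0 of the 29 genes lay higher and 1 lower, against 15.9% and 14.0% of autosomal genes. The licensing factor gene Cdc6 read 8.26 and 8.17 in WT and 7.604 and 8.166 in cKO, and Bub1 9.24 and 10.02 against 8.79 and 9.83. Both were lowest in cKO replicate 3, and Bub1 was 0.20 without it. Of 16 apoptosis genes 1 lay higher and 0 lower without overlap. The BH3-only genes Bbc3 (-0.22, SE 0.18) and Bcl2l11 (-0.33, SE 0.28) and the survival gene Bcl2l1 (0.09, SE 0.25) differed by about their errors, and each changed sign in at least 1 alternative.

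No gene of the ribosome biogenesis, glycolysis and cholesterol lists was called. Of 16 ribosome biogenesis genes 4 lay higher and 0 lower without overlap, against 15.9% and 14.0% of autosomal genes. The median was 0.13. Rrs1 (0.65, SE 0.34) and Wdr43 (0.28, SE 0.21), both of nucleolar assembly, had the smallest p. Of 13 glycolysis genes 4 lay higher and 1 lower, with the glucose transporter gene Slc2a3 at 0.40 (SE 0.33) and Hk2 at 0.19 (SE 0.18). Of 15 cholesterol synthesis genes 4 lay higher and 0 lower, with Mvk, mevalonate kinase, at 0.43 (SE 0.19) and Lss, lanosterol synthase, at 0.38 (SE 0.25).

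No other member of the families of the 5 genes was called. Each family count here and in the next paragraph includes the called gene, whose groups do not overlap, so that member adds no support. Of 22 tetraspanins 7 lay higher and 2 lower without overlap, against 15.9% and 14.0% of autosomal genes. After Cd53 the smallest p was that of Tspan32, a tetraspanin of blood cells, at 9.21 and 8.81 in WT and 10.02 and 9.93 in cKO (difference 0.97, SE 0.30). In V2 the Tspan32 difference was 0.74 (SE 0.23), mainly within the immV2 set. It read 8.61 and 8.63 in WT and 8.59 and 9.33 in cKO in V2imm, and 8.81 against 10.13 and 10.15 in immV2. Of 21 genes of protein folding in the endoplasmic reticulum 5 lay higher and 2 lower, with Ero1a, the paralog of Ero1b, at 8.74 and 8.69 against 9.14 and 9.18.

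Of 15 glycosphingolipid genes 4 lay higher and 4 lower without overlap, B3gnt5 among the lower, against 15.9% and 14.0% of autosomal genes. B3galt4, a galactosyltransferase of the ganglio series, read 7.53 and 7.30 in WT and 6.999 and 6.853 in cKO (difference -0.49, SE 0.22). Of 13 genes of nucleoside transport and handling 4 lay higher, Slc28a2b and Slc28a2 among them, and 4 lower. Of 23 imprinted genes 3 lay higher and 6 lower, Nnat among the lower. After Nnat the smallest p belonged to Zim1 (0.22, SE 0.18), below the lower quartile in all 4 arrays.

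In the interferon list 4 of 22 genes, Sting1 among them, lay higher and 2 lower without overlap, against 15.9% and 14.0% of autosomal genes. Rtp4, an interferon-induced chaperone of receptors, read 7.45 and 7.28 in WT and 6.76 and 5.95 in cKO (difference -1.01, SE 0.33), opposite to Sting1. Of 10 heat shock genes 2 lay higher and 2 lower. Hsph1 (-0.84, SE 0.29) and Hsp90aa1 (-0.43, SE 0.24), both chaperones, were highest in WT replicate 5. Of 13 chemokine and egress receptors 3 lay higher and 0 lower, with S1pr4 at 0.52 (SE 0.26) in DP and 0.52 (SE 0.20) in V2. In V2 that difference lay mainly within the immV2 set. S1pr4 read 8.18 and 8.29 in WT and 8.13 and 8.80 in cKO in V2imm, and 8.76 against 9.67 and 9.76 in immV2.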

How the data were processed

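RNA of sorted thymocytes was labelled for Affymetrix whole-transcript arrays, per the labels' protocols. The deposited table holds 1 linear RMA intensity per probe set and array; the submitters' processing notes name Affymetrix Power Tools and RMA. Versions and genome build are not given in the sources used here. RMA corrects background, normalises arrays together and summarises probes. Here log2 was taken.

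The platform annotation gave 1 symbol for 21425 of the 24922 probe sets and several for 1399, and it does not list 2098. Of the 21425, 21347 matched the RefSeq gene table (GRCm38.p6) by gene ID. The brightest probe set stood for each of the 19752 genes. Among the named genes, Tax1bp3 and Tmsb10 had 2 probe sets, and Tet1 and Hsp90aa1 had 3. Array medians were close (122.2 to 137.2 in intensity). The number of arrays limits precision.

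Groups came from titles. Limma 3.58.1 in R 4.3.3 (lmFit, eBayes with intensity trend) fitted 4 group means and the V2 title set over 11 arrays, since 2 arrays a group give little estimate of spread alone. All tests were two-sided, and p-values were adjusted by Benjamini-Hochberg over the 19752 genes. An exact test of 2 against 2 arrays cannot go below p = 0.333 and was not used. The fit was tested on simulated data. The alternatives were other array sets, normalizations, filters and covariates, an offset, a replicate block and leaving out each array.

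Named genes were every called autosomal gene, the 12 largest differences in each direction (unadjusted p under 0.01, no overlap, higher group at or above the median), the 2 with the smallest p of each list, and fixed genes. Receptor segment, predicted, Rik, olfactory and muscle genes were left out of the ranking. The 34 lists had 541 autosomal members measured. Members and lists were chosen with earlier results of these data known.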

Additional observations from a re-analysis of the deposited data

Results flagged for a closer look

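The genes named from the ranking were checked in the 4 V2 cKO arrays for a sample far from the others; 24 genes were checked, and chance flags about 1 in 20. B3gnt5 stood out, with V2 cKO replicate 4 (immV2) at 6.68 and the others at 7.39, 7.45 and 7.45 on the log2 scale. The DP groups hold too few arrays for such a check.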

How the results depend on the processing

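Across 23 alternatives, 59 of 70 named genes kept their direction. Much of this was fixed in advance. The DP difference is that of the DP group means. Leaving out V2 arrays, the title-set covariate or the intensity trend cannot alter it. Genes whose DP groups do not overlap cannot change sign when 1 DP array is left out. The count of 5 called genes (3 higher, 2 lower) became 0 (0 and 0) with the 4 DP arrays alone, with the 13 arrays as labelled and with the Xist covariate. It was 3 (1 higher) without the title-set covariate, 9 (5 lower) with quantile normalization and 7 (4 lower) with genes at or above the median level only. Leaving out 1 array gave 0 to 14 calls, with 0 to 8 higher and 0 to 7 lower: 0 without DP WT replicate 5, 2 without DP WT replicate 3 (1 of the 5), 3 without DP cKO replicate 3 (2 of the 5), 6 without DP cKO replicate 4 (4 of the 5), and 14 without V2 cKO replicate 4 or 5 (V2imm), all 5 included. The interaction count of 0 ran from 0 to 2. A replicate block on the numbers in the titles gave 4 calls, all among the 5; DP WT and cKO arrays share only number 3, and the numbers were not taken as pairs. The causes were not tested.

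As labelled, with the DP cKO array of γδ marker profile in its group (Tox 11.86 there, 11.25 to 11.98 in V2), the difference was 0.19 for Itih5, 0.19 for Tle4, 0.18 for Tox, -0.36 for Mir181a-1 and -0.65 for Bcl2l1, which was -0.027 with the Xist covariate; Lef1 was -0.010 with quantile normalization. With 1 array left out, differences ran from -0.92 to 0.14 for Sos1, -0.78 to 0.0059 for Tle4, -0.84 to 0.20 for Bub1, -0.48 to 0.046 for Bbc3, -0.67 to 0.016 for Bcl2l11, -0.66 to 0.16 for Sox4, -0.41 to 0.45 for Lef1 and -0.21 to 0.39 for Bcl2l1.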

Other observations

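The array labelled V2 WT replicate 5 (immV2) belongs to no comparison here, because its Cd4 (12.6), Cd8a (12.9) and Rag1 (13.02) read as in DP cells. Its values for the 5 called genes were 9.13 for Nnat, 6.09 for B3gnt5, 10.12 for Cd53, 9.05 for Ero1b and 9.25 for Slc28a2b on the log2 scale. It was closer to the DP cKO mean than to the DP WT mean in all 5, and in all 24 genes named from the ranking, against 63.4% of the 5652 autosomal genes whose DP groups do not overlap. The 24 were also chosen by size, p and level and the 5652 were not, so these shares are not matched. Tax1bp3 read 8.84 in this array, Tmsb10 8.01, Sting1 9.90 and Il2ra 10.84. Its label was kept, and why it reads this way was not tested.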
